A study of Mus musculus with 4 samples.

Results

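The genes described here are the 10 mouse genes that encode the light-response machinery of cone photoreceptors, out of 22863 genes listed in an RNA-seq table of mouse eyes. They were chosen by name: the opsins Opn1sw and Opn1mw, the transducin subunits Gnat2, Gnb3 and Gngt2, the phosphodiesterase subunits Pde6c and Pde6h, the channel subunits Cnga3 and Cngb3, and the arrestin Arr3. All 10 were found in the table, each as 1 row, and all 10 passed the filter on low values that left 17784 genes for testing. The rule uses no measured value.

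The study compared C3H/f+/+ mice, a strain that makes melatonin, at the same clock time but with different light histories. C3H/f+/+ mice carry the intact Pde6b gene and so keep their rods, in contrast to the original C3H strain. The subjective day mice were kept in darkness for 18 hours and taken at circadian time 6 (noon). Another passage of the study gives a longer stay in darkness for this group. The objective day mice had seen morning light and were dark-adapted for 1 hour before they were taken at zeitgeber time 6 (noon). Each group had 2 samples, described by the study as biological replicates, and each sample pooled 4 eyes of 1 female and 1 male, so that no sample stands for a single animal. For the animals used for RNA-seq the sources used here say only that they were age-matched, and an age is given only for a separate set used for quantitative RT-PCR. Both groups were thus dark-adapted at harvest, and the comparison asked what a morning of light, as opposed to continued darkness, did to transcript levels at noon.

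Cones mediate daylight and color vision, and in the nocturnal mouse retina they are a small minority among the rods. Light isomerizes the chromophore of a cone opsin, the opsin activates cone transducin, transducin relieves the inhibition of the cone phosphodiesterase, and the resulting fall in cyclic GMP closes the cyclic nucleotide-gated channel of the outer segment. Cone arrestin then binds the phosphorylated opsin and ends its activity. Most mouse cones contain both opsins, with the short-wavelength opsin predominating ventrally and the middle-wavelength opsin dorsally. Loss of Gnat2, Pde6c, Cnga3 or Cngb3 causes achromatopsia, the loss of cone vision.

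The promoters of 6 of the 10 genes, in 7 windows, were found in a RefSeq promoter table of GRCm38.p6. Gnb3, Gngt2, Pde6c and Cngb3 had no entry. Of the 6, the promoters of Opn1sw and Opn1mw are shown because the opsins define the cone types, and that of Arr3 because Arr3 had the smallest adjusted p among the 10 genes. Each run gives the 250 bases before the transcription start, 5′ to 3′ on the strand of the gene, in lower case. Capitals mark TAATCT, a variant of the core bound by CRX, the homeodomain factor of photoreceptors. The coordinates are chr6:29380514-29380763 on the minus strand for Opn1sw, chrX:74127216-74127465 on the plus strand for Opn1mw and chrX:100605247-100605496 on the plus strand for Arr3. The stretch before this Opn1sw start lies within the annotated span of the gene but outside its exons.

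Opn1sw: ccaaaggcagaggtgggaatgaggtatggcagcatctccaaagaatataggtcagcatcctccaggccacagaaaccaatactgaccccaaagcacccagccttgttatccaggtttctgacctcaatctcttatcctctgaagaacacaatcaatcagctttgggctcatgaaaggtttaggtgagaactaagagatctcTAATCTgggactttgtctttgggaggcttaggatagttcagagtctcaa

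Opn1mw: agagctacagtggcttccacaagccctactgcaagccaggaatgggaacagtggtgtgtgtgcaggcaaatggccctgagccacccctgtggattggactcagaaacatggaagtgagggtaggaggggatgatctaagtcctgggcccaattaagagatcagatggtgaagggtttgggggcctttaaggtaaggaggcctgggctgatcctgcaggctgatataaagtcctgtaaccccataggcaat

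Arr3: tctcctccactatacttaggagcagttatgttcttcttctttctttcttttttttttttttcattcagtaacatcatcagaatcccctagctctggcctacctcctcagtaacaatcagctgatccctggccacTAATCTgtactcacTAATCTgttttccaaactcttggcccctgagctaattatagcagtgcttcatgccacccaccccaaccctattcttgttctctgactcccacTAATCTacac

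Both strands of 300 bases around each start (250 before and 50 after) were searched for TAATCC, for TAATCT and for AGGTCA, the hexamer recognized by many nuclear receptors. No match of one motif in these windows overlapped a match of another. TAATCT was added to the search after these promoters were read, so its count beside the share of all promoters is a description only. TAATCT was found in 2 of the 7 windows of the cone genes and in 8.19% of all 32851 promoters in the table. The Opn1sw promoter held it once, with its first base 49 bases before the start, and the Arr3 promoter held it 3 times, at 10, 102 and 116 bases before the start. TAATCC was found in 1 of the 7 windows, that of Gnat2, and in 7.06% of all promoters. AGGTCA was found in 1 of the 7 windows, that of Opn1sw, which held it on each strand, and in 16.3% of all promoters. The Opn1mw window held none of these letters.

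The deposited value of a gene in a sample has the form of a read count that the authors adjusted for library size, called the adjusted count below, although the sources used here do not state how it was made. Adjusted counts summed to between 33278417 and 35236783 per sample, totals that follow from the adjustment and do not give the sequencing depth. The log2 values of the replicates had a Pearson correlation across genes of 0.991 in subjective day and 0.993 in objective day. Across the 17784 genes tested, 1514 passed an adjusted p of 0.05 in limma's test, 1325 (87.5%) with lower and 189 with higher values in objective day. Across genes, the log2 fold change rose with transcript GC content (Spearman correlation 0.58). Once the GC trend of each sample was taken out, 211 genes passed, 111 lower and 100 higher. The rod genes listed as counterparts of the cone genes summed to between 3.45% and 4.34% of a sample's total. Markers of neighboring tissue were present and differed between samples. The 6 listed lens genes, 5 of them tested, summed to 33024 and 4417 in subjective day, against 40204 and 10750 in objective day, although the lens had been removed. All 4 tested surface epithelium genes, Krt5, Krt14, Krt15 and Aldh3a1, were called lower in objective day (median log2 fold change -1.36), while Krt12, the defining keratin of the corneal epithelium, was below the filter. Of 5 blood genes tested, 3 (Hba-a1, Hbb-bs and Hbb-bt) were called higher in objective day. Of 7 Müller glia genes tested, 2 (Aqp4 and Slc1a3) were called lower and 4 had log2 fold changes above 0, with a median of 0.0024. Of 8 RPE genes tested, 2 (Rpe65 and Ermn) were called lower and 4 had log2 fold changes above 0, among them Dct (0.38, adjusted p = 0.0513, limma) and Rdh5 (0.35, adjusted p = 0.0921), with a median of 0.012. Over all genes tested 8.51% were called. The part of these differences in the results for the cone genes was not tested.

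None of the 10 cone genes differed between objective and subjective day at an adjusted p under 0.05 (limma, Benjamini-Hochberg over all genes tested). Beside the 8.51% of all genes called, a count of 0 among 10 lies near the background share. Unadjusted, 2 of the 10, Arr3 and Cngb3, had p under 0.05, compared with 25.4% of all genes. In 8 of the 10 the log2 fold change of objective over subjective day was above 0, against 52.6% of all genes. It was above 0 in 5 of the 10 without subjective day replicate 2, and also in 5 when the samples were scaled to the rod genes, which moved the median of all genes from 0.015 to -0.093. The median log2 fold change of the 10 was 0.11, compared with 0.015 for all genes, and the median size of the change regardless of sign was 0.15, compared with 0.16. Over the 11215 genes with a mean value of at least that of the lowest of the 10, these medians were 0.031 and 0.13. In 6 of the 10 the groups did not overlap, 4 with objective day above and 2 with it below, where 56.1% of all genes did not overlap. Every one of the 10 confidence intervals (95%) lay within 1.5-fold in either direction. The smallest p that exact permutation allows with 2 samples per group is 0.333, so each gene's test draws on a variance estimate that limma pools over genes.

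**Figure D1:**
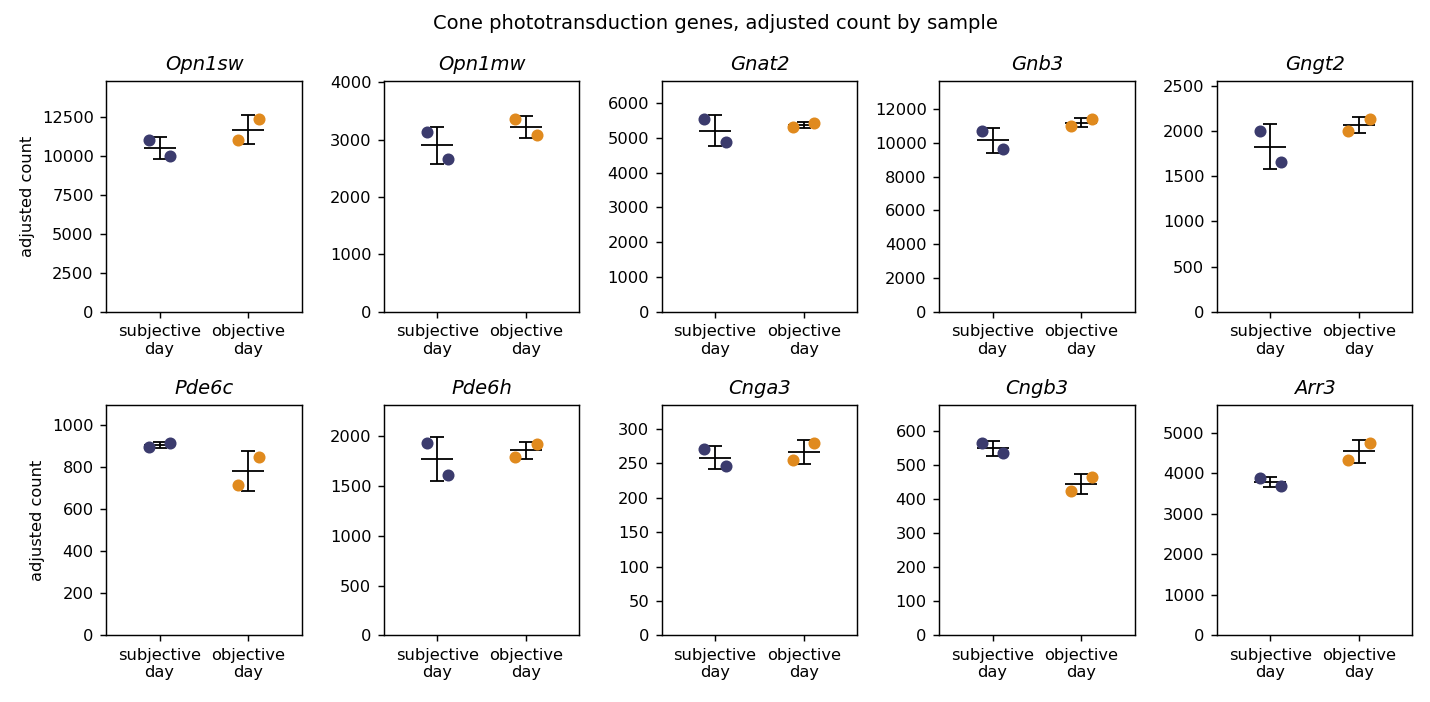
Adjusted count (linear axis from 0) of each of the 10 cone genes in the 2 subjective day samples (blue) and the 2 objective day samples (orange), replicate 1 on the left and 2 on the right in each group; the bar is the group mean and the whiskers are the SD (n = 2). Arr3 runs from 3690 to 3871 in subjective day and from 4333 to 4741 in objective day, Cngb3 is lower in both objective day samples, and the groups overlap in Opn1mw, Gnat2, Pde6h and Cnga3.

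The replicates differed as well. In subjective day 9 of the 10 genes were higher in replicate 1 than in replicate 2, as were all 9 rod genes listed and 53.8% of all genes tested. In objective day 9 of the 10 were higher in replicate 2 than in replicate 1, compared with 0 of the 9 rod genes and 44.9% of all genes tested. Summed, the 10 genes took 0.113% and 0.103% of all adjusted counts in subjective day, against 0.115% and 0.128% in objective day. The low end of this range was subjective day replicate 2 and the high end was objective day replicate 2. In tissue that mixes many cell types, fewer cones and less RNA per cone cannot be told apart, so these shares describe the whole posterior eye.

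Opn1sw (ENSMUSG00000058831), the short-wavelength cone opsin, lies on the minus strand of chromosome 6 of GRCm38 at chr6:29376671-29388468. Its adjusted counts were 11005 and 9987 in subjective day, against 11026 and 12323 in objective day. The groups did not overlap, but the nearest samples, replicate 1 of each group, differed by a fraction of a percent. The samples numbered 2 were the lowest and the highest of the 4. The log2 fold change was 0.15 (SE 0.082, adjusted p = 0.293, limma), a fold of 1.11 with a 95% interval from 0.973 to 1.27. With 1 sample left out the log2 fold change ran from 0.073 (without objective day replicate 2) to 0.23 (without objective day replicate 1), with 0.083 without subjective day replicate 2. Its exons share 397 bases with Calu on the opposite strand, and since the strand setting of the counting is not given, reads from these bases cannot be assigned.

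Opn1mw (ENSMUSG00000031394), the middle-wavelength cone opsin, lies on the plus strand of the X chromosome at chrX:74127464-74150760, with no other gene sharing its exons. It had 3130 and 2673 adjusted counts in subjective day, against 3354 and 3083 in objective day. The groups overlapped, since subjective day replicate 1 exceeded objective day replicate 2. The log2 fold change was 0.15 (SE 0.088, adjusted p = 0.325, limma), and the fold was 1.11 (95% interval 0.964 to 1.28). Leaving out subjective day replicate 1 brought the log2 fold change to 0.27 (adjusted p = 0.0484), leaving out subjective day replicate 2 brought it to 0.039, and over all alternatives its adjusted p ran from 0.0484 to 0.901.

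The balance of the 2 opsins does not depend on how the libraries were scaled. The ratio of Opn1sw to Opn1mw adjusted counts was 3.52 and 3.74 in subjective day, against 3.29 and 4.00 in objective day. Both the lowest and the highest ratio were found in objective day, so that the subjective day values lay between them. The mean log2 ratio differed by 0.00023 between the groups (exact permutation test, two-sided, p = 1). Divided by the length of the principal transcript of each gene, 2410 bases for Opn1sw and 1227 for Opn1mw, the ratio of adjusted counts per kilobase ran from 1.67 to 2.03. Short-wavelength opsin transcripts were thus more abundant per length than middle-wavelength opsin transcripts in each of the 4 samples.

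By the Euclidean distance between the deviations of the 4 log2 values from their own mean, the genes nearest to Opn1sw among 9222 genes outside the lists with a mean of at least 500 were Ppil1 (distance 0.026), Pecam1 (0.037) and Gm10231 (0.041). Those nearest to Opn1mw were Rilpl1 (0.0069), Ddx23 (0.010) and Calr (0.014). The likeness is over the same 4 samples and is a description.

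Cone transducin couples the opsins to the phosphodiesterase. Gnat2 (ENSMUSG00000009108, chr3:108092789-108101432), its alpha subunit, had 5528 and 4890 adjusted counts in subjective day, against 5317 and 5425 in objective day. Both objective day samples lay between the subjective day samples. The fold was 1.03 (95% interval 0.917 to 1.16, adjusted p = 0.735, limma), an interval that excludes a change of 1.5-fold either way.

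Gnb3 (ENSMUSG00000023439, chr6:124834240-124840275), the beta subunit, had 10665 and 9630 adjusted counts in subjective day, against 11007 and 11375 in objective day. Objective day was above subjective day in both samples, with a fold of 1.10 (95% interval 0.982 to 1.24, adjusted p = 0.267, limma). Its transcript has a GC content of 56.9%, and with the GC trend removed the log2 fold change went from 0.14 to 0.034. It was 0.069 without subjective day replicate 2 and 0.22 without subjective day replicate 1. Gnb3 is also the transducin beta subunit used by ON bipolar cells, so its level is not that of cones alone. Of the 14 bipolar genes tested, 8 had log2 fold changes above 0. Among those of ON bipolar cells, Grm6, the glutamate receptor of these cells, had a log2 fold change of 0.17 (adjusted p = 0.153) and Trpm1, their transduction channel, also of 0.17 (adjusted p = 0.18). Gnao1, Lrit3, Pcp2 and Gpr179 were likewise above 0, with log2 fold changes of 0.18, 0.15, 0.12 and 0.096, and were not called. Below 0 were Prkca, the kinase that marks rod bipolar cells, with -0.15 (adjusted p = 0.194), Nyx, nyctalopin, with -0.044 (adjusted p = 0.732), and Isl1, a factor of ON bipolar cells, with -0.26 (adjusted p = 0.038). The call of Isl1 was lost with the GC trend removed (adjusted p = 0.326) and without either objective day sample or subjective day replicate 2.

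Gngt2 (ENSMUSG00000038811, chr11:95837216-95845734), the gamma subunit, had 2001 and 1654 adjusted counts in subjective day, against 2004 and 2128 in objective day. As with Opn1sw, the samples numbered 1 were nearly equal and those numbered 2 were apart. The fold was 1.14 (95% interval 0.972 to 1.33, adjusted p = 0.28, limma). Without subjective day replicate 1 its log2 fold change was 0.32 (adjusted p = 0.0238), whereas without subjective day replicate 2 it was 0.046, so the size of the difference depended on which of these samples was kept. Over all alternatives its adjusted p ran from 0.0238 to 0.838. Gngt2 shares 234 exonic bases with Abi3 on the opposite strand.

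The phosphodiesterase subunits had fold changes on different sides of 1, except when scaled to the rod genes or without subjective day replicate 2, where both were below it. Pde6c (ENSMUSG00000024992, chr19:38132781-38183958), the catalytic subunit, had 896 and 915 adjusted counts in subjective day, against 716 and 848 in objective day. Both objective day samples were lower, and they differed more from each other than did the subjective day samples. The log2 fold change was -0.22 (SE 0.095, adjusted p = 0.209, limma), or a fold of 0.861 (95% interval 0.738 to 1.00). It was -0.094 without objective day replicate 1 and -0.34 without objective day replicate 2.

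Pde6h (ENSMUSG00000064330, chr6:136923832-136968865), the small inhibitory subunit that holds the enzyme inactive in the dark, had 1927 and 1613 adjusted counts in subjective day, against 1793 and 1918 in objective day. Here the objective day samples lay within the range of subjective day, with a fold of 1.05 (95% interval 0.904 to 1.22, adjusted p = 0.673, limma). Pde6h shares 136 exonic bases with Arhgdib on the opposite strand. Whether the changes of Pde6c and Pde6h differ from each other was not tested.

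The cone channel subunits had the lowest levels of the 10 genes. Cnga3 (ENSMUSG00000026114, chr1:37214434-37263384), which can form the pore on its own, had 271 and 246 adjusted counts in subjective day, against 254 and 279 in objective day. The groups overlapped and the fold was 1.03 (95% interval 0.854 to 1.25, adjusted p = 0.843, limma), the widest interval of the 10 on the log2 scale.

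Cngb3 (ENSMUSG00000056494, chr4:19280850-19510623), the modulatory channel subunit, had 563 and 533 adjusted counts in subjective day, against 422 and 464 in objective day. Both objective day samples were below both subjective day samples, by more than the spread within either group. The log2 fold change was -0.31 (SE 0.092, adjusted p = 0.0882, limma), or a fold of 0.808 (95% interval 0.696 to 0.939), which did not pass the threshold of 0.05. Cngb3 has the lowest GC content of the 10 transcripts, 39.9%, and across the table fold changes rose with GC content. Removal of the GC trend turned its log2 fold change to 0.12 (adjusted p = 0.671), and over all alternatives the adjusted p ran from 0.0446 to 0.671.

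Arr3 (ENSMUSG00000060890, chrX:100605497-100618493), cone arrestin, came closest to the threshold on the higher side. Its adjusted counts were 3871 and 3690 in subjective day, against 4333 and 4741 in objective day. The gap between the groups exceeded the distance between the replicates of either group. The log2 fold change was 0.26 (SE 0.068, adjusted p = 0.0591, limma), or a fold of 1.2 (95% interval 1.07 to 1.34). With the GC trend removed the log2 fold change was also 0.26 (adjusted p = 0.133), at a transcript GC content of 49.1%. Leaving out subjective day replicate 1 brought the adjusted p to 0.0347, and leaving out objective day replicate 2 brought it to 0.35. Scaled to the rod genes, the log2 fold change was 0.15 (adjusted p = 0.537), the highest adjusted p over all alternatives, and the lowest was 0.0074.

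**Figure D2:**
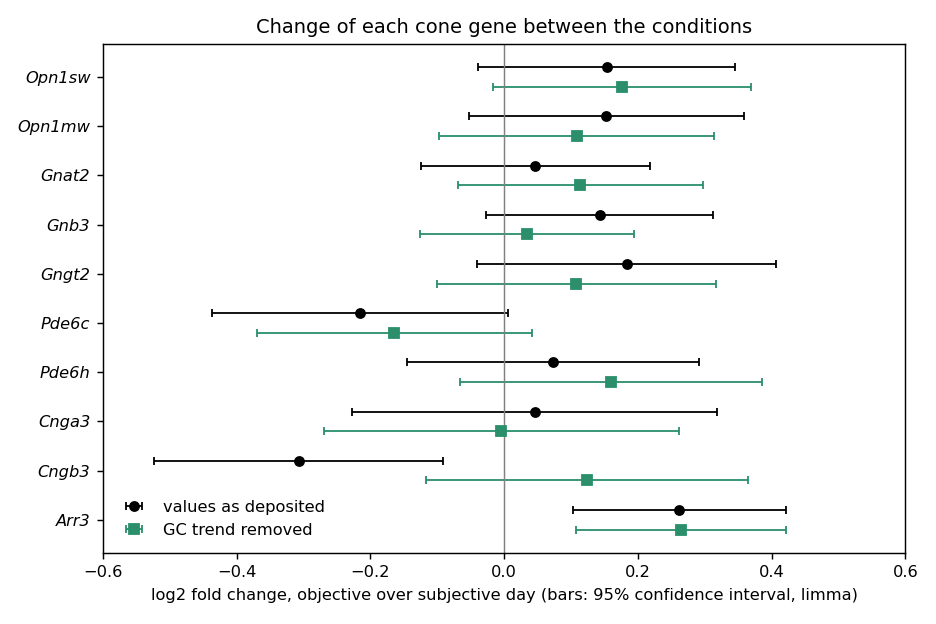
Log2 fold change of objective over subjective day (horizontal axis) for each cone gene, with 95% confidence intervals from limma, from the values as deposited (black circles) and after removal of each sample's GC trend (green squares). Cngb3 moves from -0.31 to 0.12 and Gnb3 from 0.14 to 0.034, whereas Arr3 is at 0.26 in both.

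Levels can be compared between genes per length. As adjusted count per kilobase of the principal transcript, averaged over the 4 samples with the SD over them (n = 4), Gnb3 was highest with 5780 ± 407, followed by Opn1sw with 4600 ± 397. Neither range touched that of its neighbor. Arr3 (3060 ± 348), Gnat2 (2575 ± 136) and Opn1mw (2494 ± 231) came next. The range of Opn1mw overlapped those of both Arr3 and Gnat2, while Arr3 and Gnat2 were separated by a narrow gap. Gngt2 followed with 1227 ± 129, then the phosphodiesterase genes Pde6c (326 ± 34.6) and Pde6h (305 ± 24.7), which overlapped. Cngb3 (105 ± 13.6) and Cnga3 (73.9 ± 4.24) were lowest and did not overlap. Part of this order depends on the transcript chosen, because Gngt2 and Cnga3 have principal transcripts of different lengths. With the shortest of them, 498 bases for Gngt2 and 2083 for Cnga3, the mean was 3909 per kilobase for Gngt2 and 126 for Cnga3, above Cngb3. The value of Pde6h rests on an annotated transcript of 5940 bases. That of Opn1sw rests on 2410 bases, and so does its place below Gnb3. The promoter start shown above for Opn1sw lies inside the annotated span of the gene, and a length from that start was not computed.

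**Figure D3:**
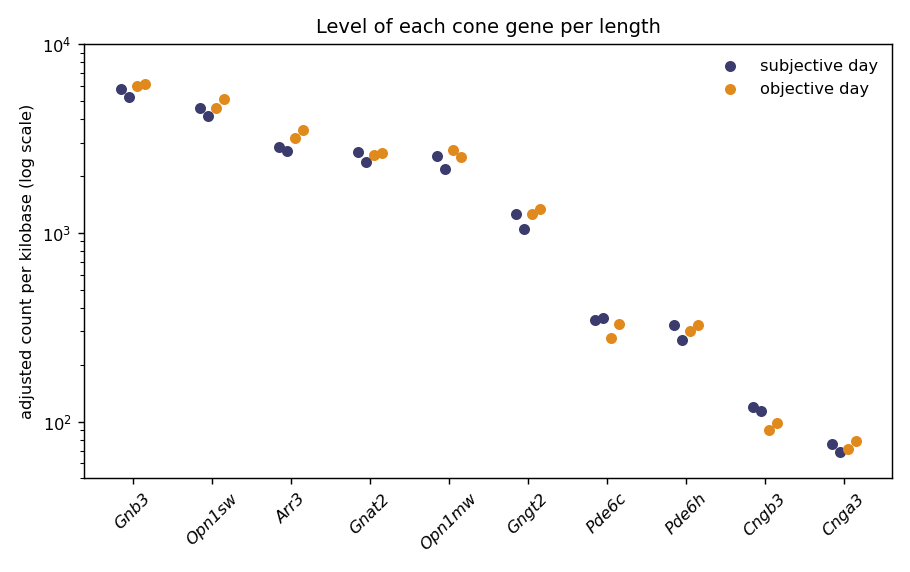
Adjusted count per kilobase of principal transcript (log axis) of the 10 cone genes in each subjective day (blue) and objective day (orange) sample, ordered by the mean over the 4 samples. The genes run from 5780 per kilobase for Gnb3 to 73.9 for Cnga3, and the difference between genes is far larger than that between the conditions.

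Rods use a parallel cascade built from related genes, which allows cone transducin, phosphodiesterase, channel and arrestin genes to be read against a rod counterpart in the same sample. Summed, the 10 cone genes amounted to 2.96% and 2.97% of the 9 rod genes listed in subjective day. In objective day they amounted to 2.65% and 3.10%, so the groups overlapped. The cone sum includes both opsins and the rod sum includes no opsin. Gnb3, in the cone sum, is also used by ON bipolar cells. These percentages are therefore not a matched share of cones against rods. None of the 9 rod genes was called either, near the 8.51% called over all genes, and 1 had an unadjusted p under 0.05 (limma), where 25.4% of all genes did. In 6 of the 9 the groups did not overlap, against 56.1% of all genes, and their median log2 fold change was 0.17. Sag, rod arrestin, came closest with 0.51 (adjusted p = 0.0714, limma).

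In 9 cone to rod pairs the log2 ratio was compared by exact permutation over the 4 samples, two-sided. The groups did not overlap in 8 pairs, each with the smallest p the design allows, 0.333 (0.375 after Benjamini-Hochberg adjustment over the pairs), so no pair could pass. Among single genes 56.1% did not overlap; the share for ratios of genes was not computed, and 2 of the 9 pairs share Pde6c. The ratio was lower in objective day in 6 pairs. Cngb3 was 2.95% and 2.93% of Cngb1, the rod channel subunit, in subjective day, against 1.95% and 2.31% in objective day, a log2 difference of -0.47. Pde6c was 1.3% and 1.45% of Pde6b in subjective day, against 0.917% and 1.12% in objective day, a log2 difference of -0.43. Against Pde6a, the other rod catalytic subunit, it was 0.839% and 0.991% in subjective day, against 0.671% and 0.893% in objective day. This was the pair that overlapped, with a log2 difference of -0.24 (exact p = 0.667), which was -0.031 without objective day replicate 1. Gngt2 went the other way, from 7.67% and 7.31% of Gngt1 in subjective day to 9.0% and 10.6% in objective day, a log2 difference of 0.38.

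With the GC trend removed, the log2 difference became 0.047 for Cngb3 to Cngb1, -0.37 for Pde6c to Pde6b and -0.37 for Gngt2 to Gngt1, and 3 pairs did not overlap. Arr3 and Sag both had fold changes above 1, and Arr3 as a share of Sag was 3.0% and 3.40% in subjective day, against 2.51% and 2.89% in objective day. That ratio, with a log2 difference of -0.25, was -0.23 with the GC trend removed. It was -0.15 without objective day replicate 1, -0.16 without subjective day replicate 2 and -0.35 without objective day replicate 2.

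**Figure D4:**
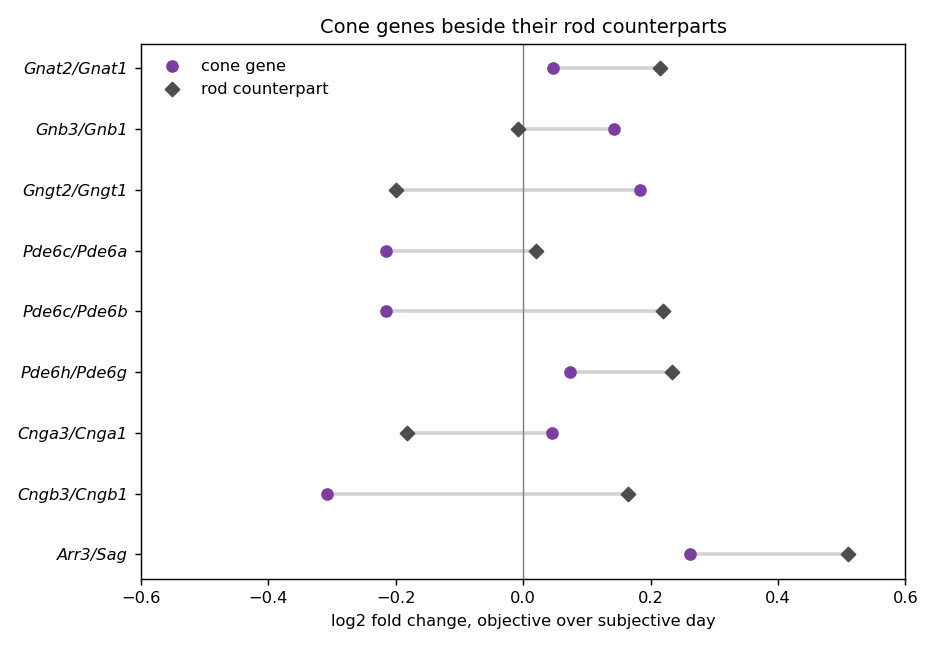
Log2 fold change of objective over subjective day for each cone gene of the 9 pairs (purple circles) and its rod counterpart (grey diamonds), joined by a line whose length is the log2 difference of their ratio. Cngb3 (which turned to 0.12 with the GC trend removed) and Pde6c lie on the other side of 0 from Cngb1 and Pde6b, and Arr3 (0.26) and Sag (0.51) both lie above 0.

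Several proteins act on the cascade in both rods and cones. Of 16 genes of response shutoff, calcium feedback and protein maturation, 1 was called, Gucy2f, a photoreceptor guanylate cyclase, a count near the 8.51% called over all genes. Its adjusted counts fell from 11528 and 11990 in subjective day to 9273 and 8720 in objective day (log2 fold change -0.39, adjusted p = 0.0151, limma). Without objective day replicate 1 its adjusted p was 0.0509, without objective day replicate 2 it was 0.126, and with the GC trend removed the log2 fold change was -0.097 (adjusted p = 0.605, the highest over all alternatives). The genes with the largest differences among the other 15 lay on the higher side without passing the test. They were the cyclase activators Guca1b (log2 fold change 0.42, adjusted p = 0.0903) and Guca1a (0.40, adjusted p = 0.0561), and Rd3, which controls cyclase traffic (0.33, adjusted p = 0.0507). Guca1a and Rd3 passed under TMM scaling, with adjusted p values of 0.0475 and 0.0425, and over all alternatives, in which neither lost its direction, the adjusted p reached 0.325 and 0.289. Rd3 shares 1452 exonic bases with the antisense gene Gm26670. The median log2 fold change of the 16 was 0.050.

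Of 11 transcription factors that set photoreceptor identity, 2 were called lower in objective day and none was called higher. Log2 fold changes were above 0 in 4 of the 11. The groups did not overlap in 9 of the 11, 3 with objective day above and 6 with it below, against 56.1% of all genes. Over all genes 8.51% were called and 87.5% of those calls were lower. Rorb, a nuclear receptor that induces the short-wavelength opsin in developing cones and is also present in other retinal cells, fell from 14526 and 16099 adjusted counts in subjective day to 8186 and 9214 in objective day. The log2 fold change of Rorb was -0.82 (SE 0.085, adjusted p = 0.00558, limma), and it was -0.50 (adjusted p = 0.0332) with the GC trend removed. Of the alternatives, the common variance prior alone, under which no gene of the table passed (3586 at an unadjusted p under 0.05), ended the call of Rorb (adjusted p = 0.126). Rora, a related receptor, fell from 12376 and 12679 to 9461 and 9416 (log2 fold change -0.41, adjusted p = 0.00974, limma). Without either objective day sample the Rora call was lost (adjusted p = 0.0624 and 0.0708), and with the GC trend removed its log2 fold change was -0.047 (adjusted p = 0.821).

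The other 9 factors did not pass. Prdm1, which restrains bipolar fate in photoreceptor precursors, had a log2 fold change of -0.30 (adjusted p = 0.0764) and Nr2e3, which represses cone genes in rods, of 0.24 (adjusted p = 0.0925). Thrb, the thyroid hormone receptor required for the middle-wavelength opsin, had -0.11 (adjusted p = 0.287), and its partner Rxrg had 0.19 (adjusted p = 0.387). Crx had -0.10 (adjusted p = 0.496). The median of the 11 was -0.10. Beside the called difference of Rorb, the log2 fold change of Opn1sw was 0.15 and did not pass the test. A link between these differences was not tested.

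Of 6 further genes enriched in cones, none was called, 2 had an unadjusted p under 0.05 (limma) and 4 did not overlap between the groups. These counts lie near the shares over all genes, 8.51%, 25.4% and 56.1%. The median log2 fold change of the 6 was 0.017. Mylk had 10342 and 9350 adjusted counts in subjective day, against 8661 and 8082 in objective day (log2 fold change -0.23, adjusted p = 0.105), and Fam19a3 had 3542 and 3326 in subjective day, against 3846 and 4024 in objective day (0.20, adjusted p = 0.106). Gulo had a log2 fold change of 0.18 (adjusted p = 0.328). These differences, though without overlap between the groups, went both ways. The tissue mixes many cell types, and the part of these levels that came from cones was not tested.

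Bipolar cells receive the cone signal. Of 14 bipolar genes tested, 2 were called, both lower in objective day, as were 87.5% of the calls over all genes, of which 8.51% were called: Cabp5, a calcium-binding protein of bipolar cells (log2 fold change -0.31, adjusted p = 0.0242), and Isl1, a transcription factor of ON bipolar cells (-0.26, adjusted p = 0.038). Each call was lost without either objective day sample, with adjusted p values of 0.149 and 0.14 for Cabp5 and of 0.239 and 0.227 for Isl1, and Isl1 also without subjective day replicate 2 (0.0685). With the GC trend removed neither passed (adjusted p = 0.239 for Cabp5 and 0.326 for Isl1). The median of the 14 was 0.053. Gnao1, the G protein of ON bipolar cells, had 0.18 (adjusted p = 0.162), and Grik1, a glutamate receptor of OFF bipolar cells, had -0.17 (adjusted p = 0.159).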

How the data were processed

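Poly-A RNA from 4 posterior eye samples was sequenced on a single lane (single reads of 50 bases). According to the submitters' processing notes and the study's methods, the authors demultiplexed the reads with CASAVA 1.8, aligned them to the mouse Ensembl release 72 with TopHat2 2.0.9 and Bowtie2 2.1.0, counted reads per gene with HTSeq and ran edgeR on both conditions. The filter, normalization and strand setting are not given in the sources used here. The authors deposited for each gene and sample a signal in the form of a gene count adjusted for library size; how it was made is not stated. It has decimals and its totals are nearly equal, so count tests were not used. The authors also deposited a log2 fold change, a mean log2 CPM and the p-value and FDR-adjusted p-value of their comparison, none of which was used. No sample column was left unused.

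Values were tested as log2(value + 1) with limma 3.58.1 in R 4.3.3, with variances that follow the mean and no covariate, keeping genes that reached 10 in 2 or more samples. Adjustment was by Benjamini-Hochberg over all genes tested at 0.05, and fold changes are on the log2(value + 1) scale. GC content, lengths and gene positions came from GENCODE M21, a later annotation of the assembly of the authors' release. GC content was known for 98.6% of the genes tested, and its trend was removed per sample by local regression (span 0.3), which also removes biology that follows GC content. Ratios within samples were compared by exact permutation with scipy 1.17.1. The fit was also run on simulated counts drawn independently with the same dispersion for every gene, a simpler setting than these data. That run does not test the calls reported here. Intervals and p-values cover the spread between these samples only, and 2 samples per condition limit the precision. Alternatives covered scaling, filter, pseudocount, variance prior, the replicate number, GC content, the threshold and each sample left out.

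The cone genes and all lists were chosen with earlier results of these data known. Genes named are the 10 cone genes, in each other list those called and up to 3 others with the largest change, and the 3 genes nearest to each opsin. Thrb, Crx, Grik1, Prkca, Nyx, Lrit3, Pcp2, Gpr179, Krt12 and the genes of the cone to rod pairs were named for their known roles after their values were seen, and TAATCT was added after the promoters were read. A listed gene is not reported here and was left out of its list and pairs.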

Additional observations from a re-analysis of the deposited data

How the results depend on the processing

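Of 150 values (10 cone genes under 15 alternatives), 139 kept the direction of the log2 fold change and 11 reversed it, and 6 passed the threshold. For 6 of the 10 genes no alternative reversed the direction. Scaled to the rod genes, the log2 fold change was -0.061 for Gnat2, -0.035 for Pde6h and -0.062 for Cnga3. With the GC trend removed, with or without the replicate block, it was -0.0041 for Cnga3 and 0.12 for Cngb3. With 1 sample left out it ran from -0.042 to 0.14 for Gnat2, from -0.055 to 0.20 for Pde6h and from -0.022 to 0.11 for Cnga3. In those fits the lone sample of a group is assumed to vary like the other group.

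The number of cone genes called was 0, 2 (Arr3 and Cngb3) at an adjusted p under 0.10, and 0 to 3 with 1 sample left out, the 3 being Arr3, Gngt2 and Opn1mw without subjective day replicate 1. The samples share only a replicate number. Across the genes tested, the deviations of the samples numbered 1 from their group means had a correlation of 0.319. With 2 samples per group the samples numbered 2 give the same value. With the replicate block 2 cone genes were called, Arr3 (adjusted p = 0.0171) and Cngb3 (adjusted p = 0.0446), and with the block and the GC trend removed 1, Arr3 (adjusted p = 0.0074). Over all genes the number called was 1514, and it was 3613 with the replicate block (64.5% lower in objective day, against 87.5% without it), 211 with the GC trend removed (52.6% lower), 0 with a common variance prior (3586 at an unadjusted p under 0.05), 2595 at an adjusted p under 0.10, and between 664 and 2557 with 1 sample left out.

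With 1 sample left out the log2 difference of the Opn1sw to Opn1mw ratio ran from -0.14 to 0.14. With the GC trend removed, 3 cone to rod pairs did not overlap, against 8 before, and the log2 difference was -0.37 for Gngt2 to Gngt1, 0.012 for Pde6h to Pde6g, -0.074 for Cnga3 to Cnga1 and 0.047 for Cngb3 to Cngb1. The cause of these shifts was not tested. The adjusted values do not give the depth behind each gene, so no counting interval can be set on the low channel genes.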
